A study of Mus musculus with 6 samples.

Results

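Lipocalins are small, mostly secreted proteins that fold into a barrel around a pocket for a lipid, steroid, odorant or iron-binding siderophore. Several are known from the male reproductive tract, where the epididymis secretes a set of them under androgen control. Others serve in defence against bacteria, in retinol transport in blood, in prostaglandin synthesis or in the acute phase response. Described here are 9 genes of the family, Obp2a, Lcn12, Lcn2, Lcn8, Ptgds, Apod, Rbp4, Orm1 and Apom, of 30063 genes measured. They were taken by symbol, and each had a single transcript cluster (the probes that read one transcript unit), so picking a gene's brightest cluster decided nothing. The family was chosen by the measured difference between the groups in Obp2a and Lcn12, which was among the largest on the array. Their values are therefore a description and no test of them is given. The others were listed as relatives of these genes with earlier results of the same data known.

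Expression was measured in tumor cells sorted from allografts of MCRedAL, a line of mouse prostate tumor cells labelled with mCherry, a red fluorescent protein, grown in male mice. One group was 3 untreated tumors, titled Intact and called castration sensitive by the submitters, and the other was 3 tumors of mice given degarelix, titled 7dPC, with the meaning of that tag not stated in the labels. Degarelix blocks the gonadotropin-releasing hormone receptor and so withdraws androgen. It was injected under the skin once tumors measured about 500 mm2 (unit as labelled), and mice were randomized between the groups. The series' design text calls the treated group Post-ADT, after androgen deprivation therapy, and states that tumors of similar size were used. All sorted cells were mCherry positive and negative for CD45, F4/80 and CD11b, and the RNA integrity number was 9 or higher. The labels used here state neither strain nor age of the mice, and all tumors came from 1 line. The samples are labelled biological replicates, and 3 arrays per group limit the precision.

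The array values are log2 expression levels of a transcript cluster. The median over 23 background probe sets and all arrays was 3.26, so a gene below the brightest of them may still be expressed. That brightest one reached 6.93, and between 29.8% and 31.0% of genes per array lay above it. Of 10 measured luminal epithelium markers 3 (Krt18, Epcam and Cdh1) lay below that level on all arrays, while Krt8, Foxa1, Cldn3, Cldn4 and Cd24a lay well above it. Krt19 lay above it on all 6 arrays and Hoxb13 on 5. Between the groups Krt19 rose by 1.88 (SE 0.12) and Cldn3 fell by 0.31 (SE 0.08), and the other luminal markers did not pass the test. Of 8 measured basal epithelium markers Krt15 rose by 3.88 (SE 0.17) and Krt14 by 0.38 (SE 0.08), and none fell. In the same test 4.2% of all genes were called higher and 7.53% lower. Of 12 markers of macrophages and other leukocytes 11 were highest in untreated replicate 1, the exception being Cd3e (5.46 there and 5.79 in degarelix replicate 1). The summed level of the 12 genes was 11.05 in untreated replicate 1, against 9.5 and 10.13 in the other untreated and 9.54 to 9.56 in the degarelix samples (log2). None of the 12 passed the test between groups, and 7 lay below the brightest background probe set on all arrays. In these bulk samples fewer cells of a type and less RNA per cell cannot be told apart.

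Sequences are shown for the genes on which the results turn. RefSeq promoters (assembly GRCm38.p6) were matched for 8 of the 9 genes, all but Orm1. The stretch before the annotated start of Obp2a has a close copy before that of its neighbour Obp2b. Over 217 aligned bases without gaps 214 were identical (98.6%). The copies are shown because both genes were higher after degarelix. The Obp2a stretch is chr2:25699824-25700040 on the plus strand, from 250 to 34 bases before the start, and the Obp2b stretch is chr2:25736790-25737006 on the plus strand, from 217 to 1 bases before the start. Capitals mark the 3 mismatches.
Obp2a: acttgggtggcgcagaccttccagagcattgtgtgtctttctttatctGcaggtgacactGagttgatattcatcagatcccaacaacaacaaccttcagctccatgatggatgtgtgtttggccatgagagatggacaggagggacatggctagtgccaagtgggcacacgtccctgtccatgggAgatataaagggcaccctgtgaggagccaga
Obp2b: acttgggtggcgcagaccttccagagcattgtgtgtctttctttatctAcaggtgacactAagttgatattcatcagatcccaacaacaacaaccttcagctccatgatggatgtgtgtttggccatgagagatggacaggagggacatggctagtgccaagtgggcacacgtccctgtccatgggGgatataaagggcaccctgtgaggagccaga

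Lcn12 and Ptgds lie next to each other in the RefSeq gene order and were both lower after degarelix, so their promoters are shown too. The Lcn12 promoter is chr2:25493912-25494161 and that of Ptgds chr2:25469750-25469999, both on the minus strand and each 250 bases long. Capitals mark matches, on either strand, to the hexamer TGTTCT that the androgen receptor reads as one arm of its site, or to the AP-1 motif TGANTCA.
Lcn12: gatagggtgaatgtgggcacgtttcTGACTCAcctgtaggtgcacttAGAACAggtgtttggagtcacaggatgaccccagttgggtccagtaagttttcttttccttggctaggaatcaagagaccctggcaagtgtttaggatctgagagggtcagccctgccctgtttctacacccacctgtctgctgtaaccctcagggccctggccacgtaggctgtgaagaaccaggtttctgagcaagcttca
Ptgds: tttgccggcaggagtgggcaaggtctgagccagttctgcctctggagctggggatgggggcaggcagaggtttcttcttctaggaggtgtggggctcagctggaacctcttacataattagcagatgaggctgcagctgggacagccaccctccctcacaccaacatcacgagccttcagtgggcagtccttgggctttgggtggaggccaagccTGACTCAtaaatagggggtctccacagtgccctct

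The Lcn12 window held 1 match to the hexamer and 1 to AP-1, and the Ptgds window 1 to AP-1. These motifs were not particular to the genes that fell. The window of C8g, the lipocalin gene on the other side of Lcn12, held both, and C8g did not pass the test. The hexamer was also found before Lcn6, Lcn9, Lcn10, Lcn11, Ambp and Obp1a, which did not pass either, and before Orm2, which fell. Of 32851 RefSeq promoters of the same length, 16.1% held the hexamer and 6.75% the AP-1 motif. The motif TATAAA lay 61 to 56 bases before the annotated start of Obp2a and 28 to 23 bases before that of Obp2b, inside the shared stretch, and was held by 12.4% of promoters. The Lcn2 window held the C/EBP motif TTGCNNAA as TTGCTCAA, which 9.56% of promoters did. It held no match to the NF-kB motif, which 3.9% of promoters held and which was found in the Ptgds window. No matches named here overlapped each other. A match is a description of letters and not evidence of a bound site.

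Obp2a, an odorant-binding lipocalin that RefSeq also lists as Lcn13, stood at 9.25, 9.67 and 9.99 in untreated and at 12.75, 12.79 and 12.84 in degarelix tumors. The lowest treated sample was 2.76 above the highest untreated one, and the treated tumors differed among themselves by less than 0.1 while the untreated ones spread more widely (SD 0.04 and 0.37, n = 3 each). The mean was higher by 3.16 on the log2 scale (SE 0.16), an 8.92-fold difference and the rise of rank 6 among all genes. All 6 arrays lay above the brightest background probe set.

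Lcn12, a lipocalin known from the epididymis, stood at 9.28, 10.6 and 10.14 in untreated and at 7.16, 7.34 and 7.64 in degarelix tumors. The groups were apart by 1.64, with untreated replicate 1 the lowest of its group. The mean was lower, a 6.17-fold difference (change -2.62, SE 0.29), the fall of rank 8. The treated levels were only just above the brightest background probe set.

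**Figure D1:**
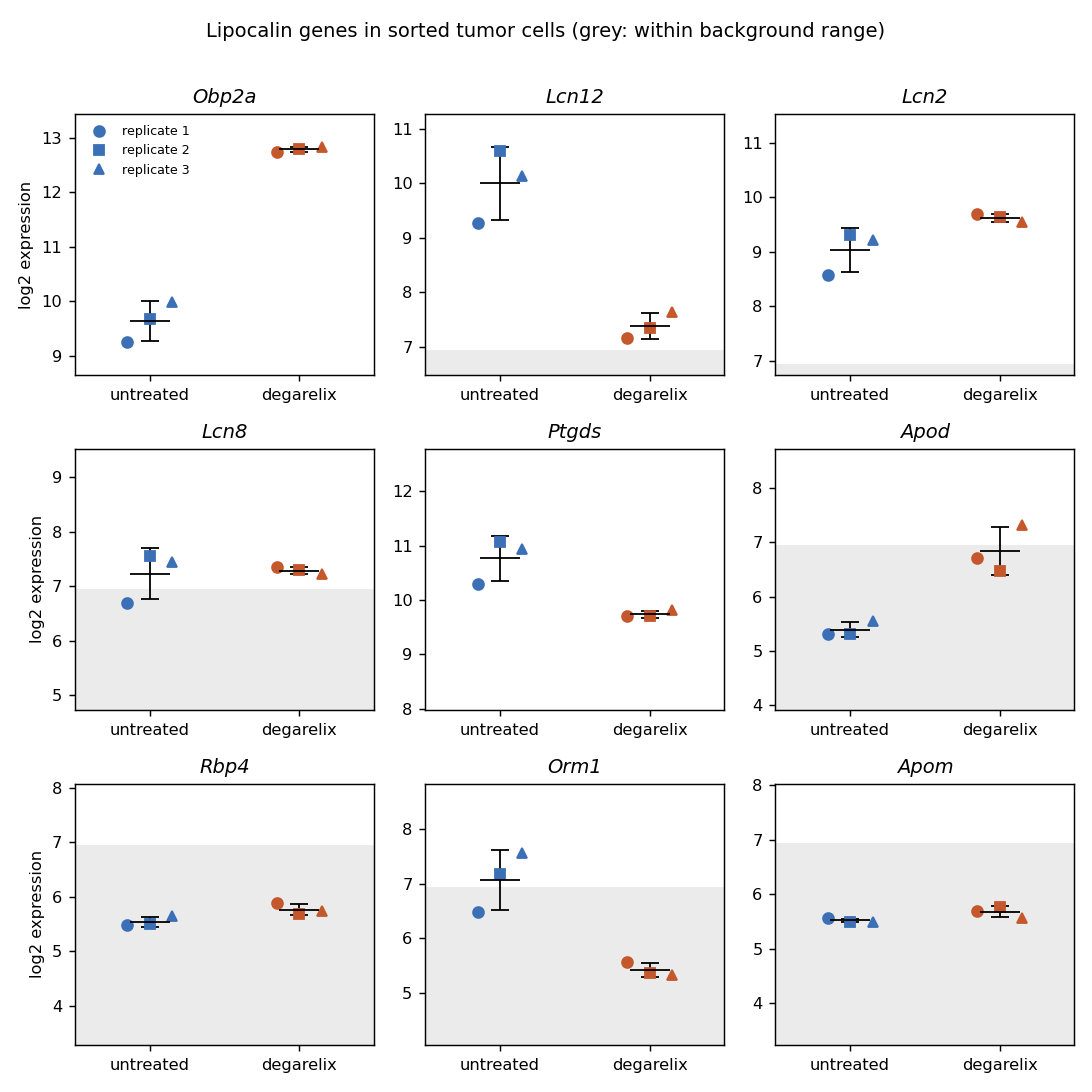
Log2 expression (y axis) of the 9 lipocalin genes in 3 untreated and 3 degarelix tumors (x axis). Symbols are samples, black bars the group mean and SD, every panel spans the same log2 range, and grey marks levels up to the brightest background probe set (6.93). Obp2a and Apod were higher and Lcn12, Ptgds and Orm1 lower in every degarelix sample, and Lcn8 overlapped.

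The other 7 genes were read from the fit over all genes, limma with Benjamini-Hochberg adjustment and a threshold of 0.05, in which 11.7% of all genes were called, 4.2% higher and 7.53% lower. With Obp2a and Lcn12 counted, 2 of the 9 were called higher and 3 lower, with a median change of 0.16 against 0.04 over all genes. All 5 differed by at least 2-fold, and 1.35% of all genes were called with such a size. The groups did not overlap for 8 of the 9, against 31.2% of all genes. Since the list was drawn up with these changes in view, nothing is read from those shares.

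Among the enzymes and carriers, Ptgds, the lipocalin-type prostaglandin D synthase that both makes prostaglandin D2 and carries lipophilic ligands, stood at 10.3, 11.06 and 10.93 in untreated and at 9.71, 9.7 and 9.81 in degarelix tumors. All treated samples were below all untreated ones. It fell by 1.02 (SE 0.17, limma adjusted p = 0.00742), a 2.03-fold difference, with every array above background.

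Apod, which encodes apolipoprotein D, a carrier of arachidonic acid and steroids found on lipoproteins and in secretions, stood at 5.32, 5.31 and 5.55 in untreated and at 6.71, 6.46 and 7.32 in degarelix tumors. It rose by 1.44 (SE 0.19, limma adjusted p = 0.00238), and its groups were 0.91 apart. Degarelix replicate 3 was the highest sample, and it was the only array on which Apod lay above the brightest background probe set.

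Of 9 measured fibroblast markers 7 were highest in that same sample; Dpt was highest in untreated replicate 3 (7.27, against 6.83 in degarelix replicate 3) and Thy1 in untreated replicate 1 (6.29, against 5.99). Dcn, which encodes the matrix proteoglycan decorin, stood at 6.94, 7.35 and 8.02 in untreated and at 8.71, 8.55 and 9.43 in degarelix tumors and rose by 1.46 (SE 0.29, limma adjusted p = 0.0147). Dcn and Fbln1 rose and none of the 9 fell, against 4.2% and 7.53% of all genes. Of the 9 markers 1 lay below the brightest background probe set on all arrays. Their summed level was 10.98 to 11.27 in untreated and 11.23 to 11.87 in degarelix tumors (log2), ranges that overlapped. Of the single markers Dcn, Fbln1 and Lum had no overlap between the groups, with gaps of 0.53, 0.74 and 0.14, and the other 6 overlapped. Without degarelix replicate 3 the change of Apod was 1.19 (SE 0.11, limma adjusted p = 0.00318). The part of these genes in the result was not tested.

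**Figure D2:**
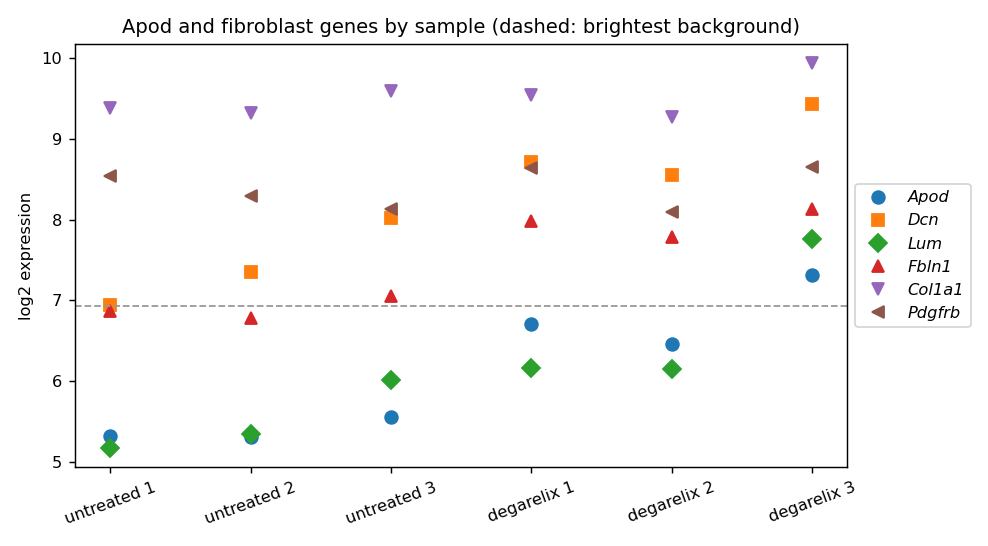
Log2 expression (y axis) of Apod and 5 fibroblast genes in each of the 6 samples (x axis), 1 point per gene and sample, with a dashed line at the brightest background probe set (6.93). Apod, Dcn, Lum, Fbln1 and Col1a1 were each highest in degarelix replicate 3, where Apod reached 7.32 and Dcn 9.43.

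Of the blood carriers, Orm1, an alpha-1-acid glycoprotein of the acute phase that binds drugs and steroids, stood at 6.48, 7.17 and 7.56 in untreated and at 5.56, 5.36 and 5.32 in degarelix tumors. It fell by 1.66 (SE 0.23, limma adjusted p = 0.00294), a 3.15-fold difference without overlap. The treated levels and that of untreated replicate 1 lay within the background range. The related genes Orm2 and Orm3, which are not among the 9, fell as well, at -0.55 (SE 0.09, limma adjusted p = 0.00811) and -0.49 (SE 0.08, adjusted p = 0.00491), with all their levels within the background range. The promoters of Orm2 and Orm3 were alike too, at 89% over 245 aligned bases with 2 gaps. Probes read transcripts, and the transcript sequences of these genes were not compared. Related genes such as Orm1, Orm2 and Orm3 may share probe signal, which was not tested, so each is uncertain as a single gene.

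Rbp4, the retinol carrier of blood, stood at 5.48, 5.5 and 5.64 in untreated and 5.88, 5.68 and 5.74 in degarelix tumors. Apom, the apolipoprotein that carries sphingosine 1-phosphate on high-density lipoprotein, stood at 5.56, 5.5 and 5.5 and at 5.69, 5.77 and 5.57. Both genes lay within the background range on all 6 arrays. Neither change, 0.22 (SE 0.08, limma adjusted p = 0.116) for Rbp4 and 0.16 (SE 0.08, adjusted p = 0.226) for Apom, passed the test, and a small change could have been missed at this brightness.

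Lcn2, the antibacterial lipocalin that binds bacterial siderophores, stood at 8.58, 9.31 and 9.21 in untreated and at 9.69, 9.64 and 9.55 in degarelix tumors. Every treated sample was above every untreated one, by 0.24 at the closest, yet at 0.59 (SE 0.17) the change missed the threshold (limma adjusted p = 0.0596). The call turned on single samples and on the scaling. Without untreated replicate 1, the lowest, the change was smaller, 0.36, but passed (adjusted p = 0.0198), and without untreated replicate 2 it was 0.73 (adjusted p = 0.0371). It also passed under cyclic loess, at 0.7 (adjusted p = 0.0259), and quantile normalization, at 0.66 (adjusted p = 0.0357). Neutrophils store the Lcn2 protein in their granules. Of 12 neutrophil markers, among them S100a8, Ngp, Camp and Elane, all lay below the brightest background probe set on every array. Only Ltf, the lactoferrin gene, rose, by 0.48 (SE 0.08, limma adjusted p = 0.0086), against 4.2% of all genes that rose. The summed level of the 12 markers was 8.47 to 8.53 in untreated and 8.49 to 8.65 in degarelix tumors.

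Lcn8, another epididymal lipocalin, stood at 6.69, 7.56 and 7.44 in untreated and at 7.35, 7.29 and 7.22 in degarelix tumors. Its groups overlapped, and its change of 0.06 (SE 0.2, limma adjusted p = 0.873) was within the spread of the untreated samples (SD 0.47). Over 14 alternative analyses its change lay between -0.21 and 0.22. Of 6 measured epididymis markers, all below the brightest background probe set on every array, the sperm-maturation gene Adam7 fell by 1.15 (SE 0.13, limma adjusted p = 8.82e-04) and the others did not pass. None of 8 seminal vesicle markers passed the test or lay above that level. The share of all genes that passed was 11.7%.

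Within the untreated group, replicate 1 was the lowest sample for 7 of the 9 genes. Over all genes that sample was the lowest in 39.3%. It lay below the mean of the other untreated samples by 1.09 for Lcn12, 0.89 for Orm1, 0.81 for Lcn8, 0.7 for Ptgds, 0.69 for Lcn2 and 0.58 for Obp2a. The same sample was the highest for 11 of the 12 leukocyte markers, all but Cd3e. One was Lyz2, a lysozyme gene of myeloid cells, which was 2.07 above the mean of the other untreated samples. Untreated replicate 1 was also the highest for 7 of 8 measured endothelium markers, all but Vwf. The summed level of those 8 was 9.82 there, 9.48 and 9.55 in the other untreated and 9.37 to 9.4 in the degarelix samples (log2). The share of all genes that were highest in that sample was not counted. Among the genes that were lower after degarelix, untreated replicate 1 lay nearest to the treated samples. Without it the changes were -2.99 for Lcn12, -1.26 for Ptgds and -1.95 for Orm1, and 2.97 for Obp2a. The part of that sample's makeup in these levels was not tested.

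Of 18 other lipocalin genes listed, 14 were measured and 3 were called, 1 higher and 2 lower (median change 0.1), against 11.7% of all genes. Obp2b, the neighbour and close relative of Obp2a that RefSeq also lists as Lcn14, stood at 5.18, 5.28 and 5.3 in untreated and at 6.26, 6.35 and 6.28 in degarelix tumors. It rose by 1.04 (SE 0.07, limma adjusted p = 9.35e-05), with all arrays within the background range. Whether the Obp2b probes also read Obp2a was not tested. Orm2 and Orm3 were the other called genes. In 12 of the 14 genes every array lay below the brightest background probe set, and the exceptions were Lcn10 and Lcn11.

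Those exceptions were well measured in tumor cells and did not pass the test. Lcn11 stood at 12.52, 13.17 and 13.11 in untreated and at 12.45, 12.59 and 12.7 in degarelix tumors, so that its groups overlapped at untreated replicate 1. Its change was -0.35 (SE 0.16, limma adjusted p = 0.213). Without untreated replicate 1 it passed the test at -0.56 (SE 0.09, adjusted p = 0.00631). Lcn10, an epididymal lipocalin, stood at 8.59, 9.72 and 9.98 and at 9.96, 10.01 and 10.2, a change of 0.63 (SE 0.3, adjusted p = 0.231) with overlap.

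**Figure D3:**
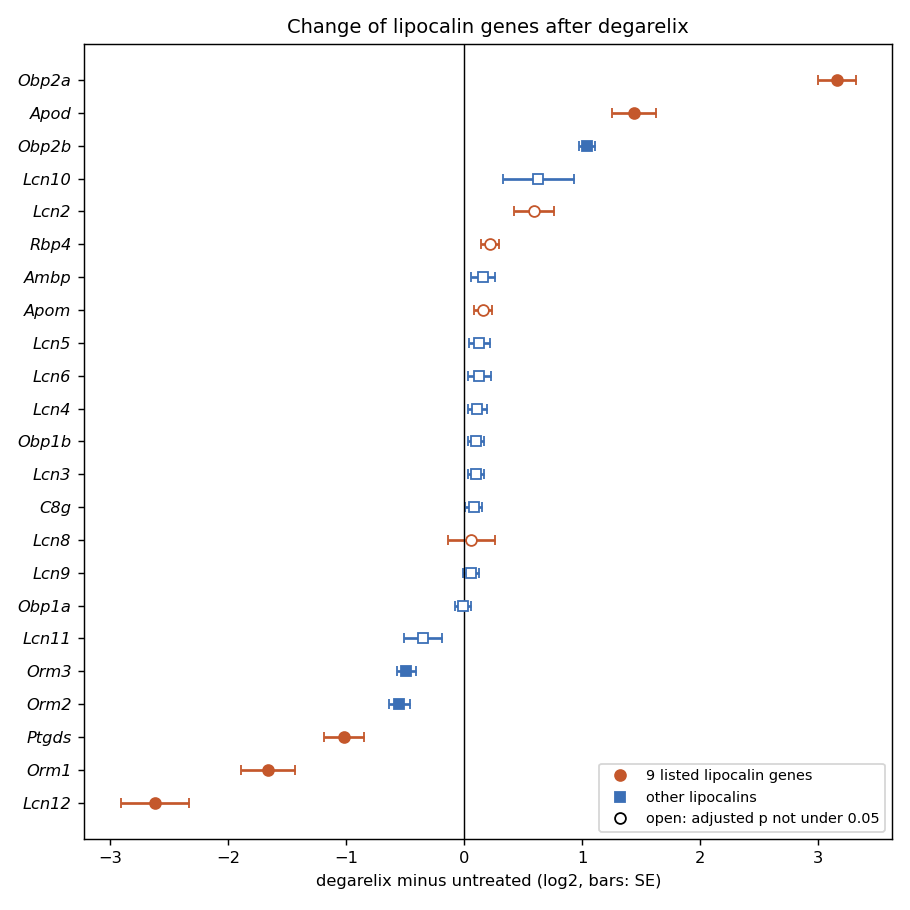
Change after degarelix (x axis, degarelix minus untreated, log2, with SE) of the 9 listed genes (circles) and 14 other lipocalins (squares), ordered by size, filled where the adjusted p was under 0.05. Changes ran from -2.62 for Lcn12 to 3.16 for Obp2a, and most of the family lay near 0. However, 14 of the 23 genes lay within the background range on all arrays, where a change could have been missed.

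Other genes of related fold were also listed. Of 22 major urinary protein genes, a lipocalin group known for androgen-dependent expression in mouse liver, 5 were measured, none passed the test in limma (none at an unadjusted p under 0.05 either) and all lay within the background range. Of 14 measured intracellular lipid-binding protein genes 2 fell and none rose (median -0.02), against 7.53% and 4.2% of all genes. The 2 that fell were the fatty acid-binding protein genes Fabp4, by 1.12 (SE 0.13, limma adjusted p = 9.73e-04), and Fabp5, by 0.94 (SE 0.1, adjusted p = 6.73e-04). The degarelix levels of Fabp4 lay within the background range, and Fabp5 lay above that range on only 1 array.

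Many lipocalin genes lie in one region of mouse chromosome 2. Between Ptgds and Lcn9 in RefSeq order there were 25 protein-coding genes with both ends counted, of which 13 were lipocalins. Of the 12 lipocalins measured, Obp2a and Obp2b were called higher and Ptgds and Lcn12 lower. Of 10 measured genes of other kinds in the region none was called, against 11.7% of all genes. Since Obp2a and Lcn12 were selected on their difference, these counts are a description and the lipocalins are not compared with the other genes. The nearest neighbours of Obp2a, Lcn10 at 0.63 (SE 0.3) and the Myc-related gene Bmyc at -0.06 (SE 0.08), did not pass the test, and among its 5 neighbours on each side, with 9 measured, only Obp2b did.

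Lcn12 had neighbours that were lower as well, all on its Ptgds side. Since Lcn12 was selected on its difference and Ptgds was listed with earlier results known, the counts around it are a description. Of 8 genes measured among the 5 on each side of Lcn12, 3 fell and none rose, against 7.53% and 4.2% of all genes. Beside Ptgds these were Abca2, a lipid transporter gene, at -0.56 (SE 0.07, limma adjusted p = 0.00167) and the chloride channel family gene Clic3 at -0.57 (SE 0.13, adjusted p = 0.0235). On the other side C8g, a lipocalin that is a subunit of complement component 8, changed by 0.08 (SE 0.07, adjusted p = 0.442) and Traf2, a signalling adaptor of tumor necrosis factor receptors, by 0.6 (SE 0.2, adjusted p = 0.0954). The call of Clic3 was lost without untreated replicate 2 (adjusted p = 0.0717) or 3 (0.0822) and without degarelix replicate 1 (0.0788) or 2 (0.0843), and against a 1.2-fold change (0.377).

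**Figure D4:**
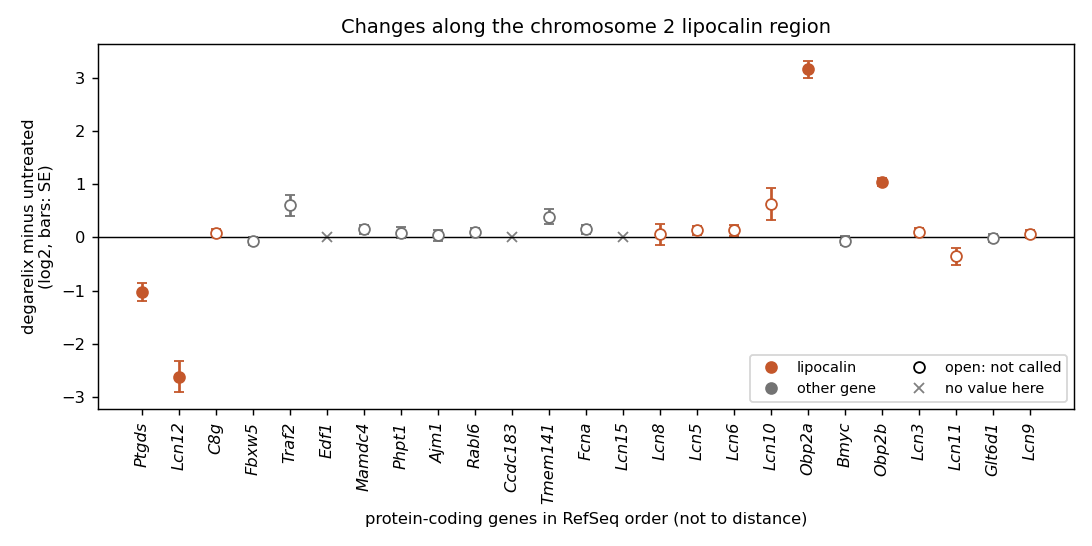
Change after degarelix (y axis, log2, with SE) of the 25 protein-coding genes from Ptgds to Lcn9 in RefSeq order (x axis, order only), lipocalins in orange and other genes in grey, filled where called and crossed where no value was used. Obp2a (3.16) and Obp2b (1.04) lie toward the right, with 4 genes beyond them, and Ptgds (-1.02) and Lcn12 (-2.62) at the left end. No gene between Lcn12 and Obp2a was called, with Lcn10 at 0.63, Traf2 at 0.6 and Tmem141 at 0.39 the highest of these.

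The genes most like Obp2a and Lcn12 were taken by Pearson correlation over the 6 arrays, among genes with an SD of at least 0.5. Arrays of 2 groups that stand apart give high values for any gene that differs between them, so these are descriptions. For Obp2a they were Lgi3 (r = 0.997), Ephx1 (0.9967), Obp2b (0.9958), Cpm (0.9954) and Itga3 (0.9948), with changes of 2.14, 1.38, 1.04, 2.46 and 1.05. For Lcn12 they were Pcna-ps2 (0.9968), Agpat5 (0.9955), Ezh2 (0.9948), Cdkn3 (0.9947) and Mthfd1 (0.9924), with changes of -0.96, -0.96, -0.93, -1.88 and -1.01. Pcna-ps2 is a pseudogene copy and may be read together with its parent gene.

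Of 10 measured receptors and partners of the lipocalins 2 fell and none rose (median 0.04), against 7.53% and 4.2% of all genes. Ttr, the transthyretin that holds Rbp4 in blood, fell by 1.34 (SE 0.21, limma adjusted p = 0.00474), from 8.71, 9.57 and 8.75 to 7.56, 7.67 and 7.79. Scarb1, a receptor for high-density lipoprotein, fell by 0.69 (SE 0.11, adjusted p = 0.00491). Another 4 receptor genes, named whatever their values, did not pass the test. They were Slc22a17, a receptor for Lcn2, at 0.23 (SE 0.11, limma adjusted p = 0.221), and the endocytic receptor Lrp2 at 0.09 (SE 0.07, adjusted p = 0.475). The others were Stra6, the retinol-binding protein receptor, at -0.17 (SE 0.14, limma adjusted p = 0.469), and Lmbr1l, a lipocalin receptor, at -0.02 (SE 0.09, adjusted p = 0.898). Slc22a17 and Lrp2 lay within the background range on all arrays, whereas Stra6 and Lmbr1l were above it on all.

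Of 10 measured transcription factors and signalling genes known to act upstream of Lcn2, 6 rose and none fell (median 0.38), against 4.2% of all genes that rose. This list and the other receptor and pathway lists were chosen with earlier results of these data known. Their counts are therefore a description, and nothing is read from the shares. Cebpd, a C/EBP factor, rose by 1.15 (SE 0.13, limma adjusted p = 9.07e-04), with its untreated levels within the background range. Nfkbiz, a nuclear cofactor of NF-kB, rose by 0.59 (SE 0.1, adjusted p = 0.00645), Relb, an NF-kB subunit, by 0.39 (SE 0.07, adjusted p = 0.00749) and Stat3 by 0.4 (SE 0.07, adjusted p = 0.00957). Without degarelix replicate 1 the count was 4, as it was with median centring, and 1 against a 1.2-fold change.

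Acute phase genes, the class to which Orm1 belongs, moved both ways, with 5 of 14 higher and 5 lower (median 0.16), against 4.2% and 7.53% of all genes. Fga, a fibrinogen chain gene, fell by 1.99 (SE 0.12, limma adjusted p = 6.71e-05), Fgg, another chain, by 1.19 (SE 0.17, adjusted p = 0.00305), and Saa3, a serum amyloid A gene, by 0.95 (SE 0.1, adjusted p = 6.90e-04). The third fibrinogen chain, Fgb, was the brightest and did not fall. It stood at 12.11, 11.93 and 11.27 in untreated and at 12.19, 12.17 and 12.12 in degarelix tumors. Its change of 0.39 (SE 0.19, limma adjusted p = 0.227) did not pass the test. The degarelix levels of Fga and Saa3 lay within the background range. Cp, which encodes the copper carrier ceruloplasmin, rose by 1.0 (SE 0.07, adjusted p = 1.20e-04). Without degarelix replicate 1 the counts were 3 higher and 3 lower.

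Of 18 retinoid genes 4 rose and 1 fell (median 0.12), against the same 4.2% and 7.53% of all genes. The retinol dehydrogenase family genes Dhrs3 and Dhrs9 rose by 1.09 (SE 0.15, limma adjusted p = 0.00272) and 1.47 (SE 0.23, adjusted p = 0.00508), and Lrat, which stores retinol as ester, by 0.87 (SE 0.13, adjusted p = 0.00401). Rdh11, a retinal reductase gene, fell by 0.65 (SE 0.1, adjusted p = 0.00458). Dhrs9 and Lrat lay within the background range on all arrays.

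Of 7 prostaglandin D2 genes besides Ptgds, Ptgs2, the inducible cyclooxygenase upstream of it, rose by 0.92 (SE 0.12, limma adjusted p = 0.0025) and the others did not pass. Hpgds, the other prostaglandin D synthase, and the receptor genes Ptgdr and Ptgdr2 lay within the background range. Of 15 partners of Apom, Abca1, a cholesterol exporter, rose by 0.96 (SE 0.17, limma adjusted p = 0.00819), and Sgpp1, a sphingosine 1-phosphate phosphatase, fell by 0.96 (SE 0.13, adjusted p = 0.00228). The 1 of 7 and 2 of 15 genes called in these lists stand against 11.7% of all genes. Without untreated replicate 1 the counts were 2 in the first list and 4 in the second.

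**Figure D5:**
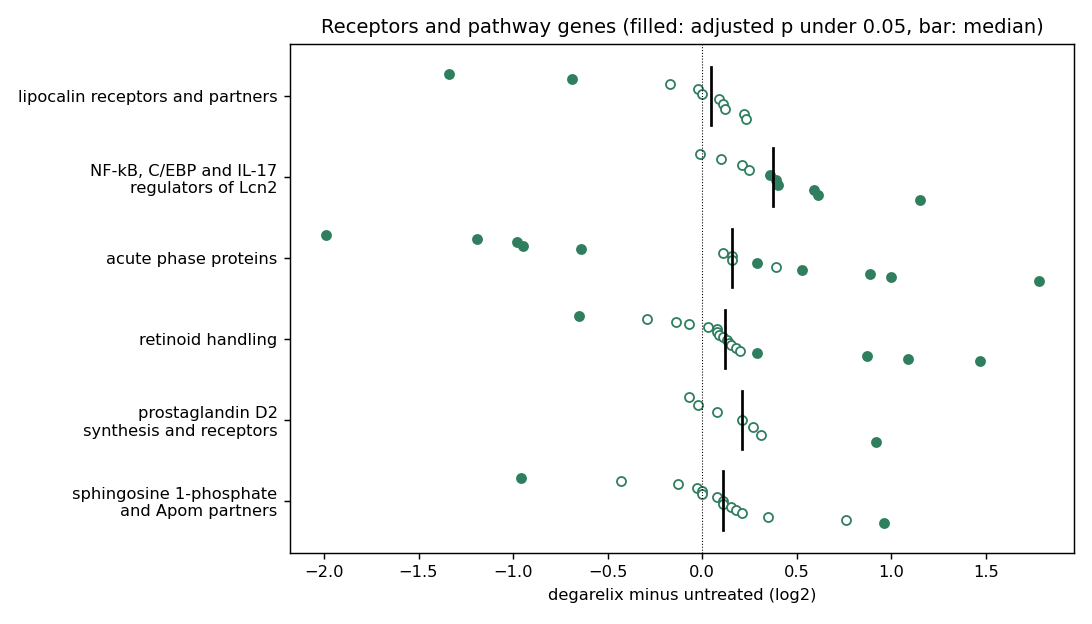
Change after degarelix (x axis, log2) of each measured gene of 6 lists (y axis), filled where the adjusted p was under 0.05, with a bar at the list's median. Filled points of the Lcn2 regulators lie above 0 without exception, and those of the acute phase list lie on both sides, from -1.99 for Fga to 1.78 for Hp.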

How the data were processed

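RNA of sorted tumor cells from 6 tumors was read on Affymetrix MTA 1.0 arrays, 1 per tumor. The authors deposited log2 expression values, made with Affymetrix Expression Console and RMA per the submitters' processing notes; the notes used here name no version or setting. RMA equalises arrays and compresses changes of dim genes. The log2 scale was read from the values (1.96 to 13.7, array medians 4.70 to 4.84). Of 72688 rows 6732 control rows were left out. Of 65956 transcript clusters 30604 had 1 gene symbol, 2146 several and 33206 none here; 1135 symbols were updated through the RefSeq gene table (GRCm38.p6), and the brightest cluster per gene gave 30063 genes. Groups were compared in limma 3.58.1 (R 4.3.3; lmFit, eBayes, two-sided, Benjamini-Hochberg over all genes, threshold 0.05), checked on simulated data. SE is limma's moderated SE; folds are powers of 2 of the change. The text names up to 4 called genes of a list, lowest adjusted p first, with 4 receptors, the 5 neighbours on each side and the 5 most correlated genes (unnamed models and small RNAs passed over). Marker lists named in the text follow the same fit. Marker genes, Traf2 and Fgb were named after their values were seen. Other lists of markers gave, of those measured, basal epithelium 2 higher of 8, endothelium 1 lower of 8, adipocyte 0 of 7, hepatocyte 1 higher of 7, Schwann cell 1 lower of 6 and luminal epithelium 1 higher and 1 lower of 10. These counts stand against 4.2% higher and 7.53% lower of all genes. Members and lists were chosen with earlier results of these data known. Alternatives were 3 scalings, an intensity trend with robust variances, leaving out dim genes, averaging clusters, a replicate block, each sample left out and a test against a 1.2-fold change. Promoters were aligned with Biopython 1.88; figures used Python 3.11.15 and matplotlib 3.10.9.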

Additional observations from a re-analysis of the deposited data

How the results depend on the processing

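Of the 9 lipocalin genes 5 were called in the main analysis and 5 to 6 with each sample left out or under any other alternative, the sixth being Lcn2. The 5 include Obp2a and Lcn12, on whose difference the family was chosen. Nothing is therefore read from that count, which stands against 11.7% of all genes. The count over all genes, 3529, was 1597 to 4702 with 1 sample left out: 4702 without untreated replicate 1, 2125 and 1972 without untreated replicates 2 and 3, and 1597 and 1836 without degarelix replicates 1 and 2. Against a 1.2-fold change it was 749, with 1 of the other lipocalins (Obp2b) in place of 3 and 12 receptor and pathway genes in place of 26, a stricter test by construction; the same 2 groups counted 3 to 4 and 19 to 27 with 1 sample left out. Under that stricter test Dcn, Ltf, Orm2, Orm3, Scarb1, Relb, Nfkbiz, Stat3, Rdh11 and Abca1 lost their call, and they kept it under the other alternatives; Clic3 lost its call under that test and without any of 4 single samples. With the replicate number as a block 3809 genes, 5 of the 9 lipocalins, 3 other lipocalins and 24 receptor and pathway genes were called. No member's call changed. Deviations from the group means correlated at 0.16, 0.04 and 0.2 between same-numbered samples, and at -0.17 to 0.03 between differently numbered ones. The labels name no pairing, and whether same-numbered samples share a batch was not tested. Lcn8 changed sign between alternatives without being called in any. Levels within the background range (up to 6.93) limit what can be said of Rbp4, Apom, Orm2, Orm3, Obp2b, Lrat and Dhrs9. They also limit the size of the change of Apod, above that range on 1 array, and of Orm1, above it on 2.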
